A study of Mus musculus with 6 samples.

Results

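The mitochondrial genome of the mouse contributed 37 genes to a table of 38483, taken as every row on chromosome MT, all of which carry names starting with mt-. By the transcript type given in the table these were 13 protein_coding genes, 2 Mt_rRNA genes and 22 Mt_tRNA genes. They were measured by stranded mRNA sequencing in splenic CD4+CD62L+ T cells from Il17a wild-type mice (IL-17A+/+) and from mice lacking Il17a, both on the B10.RIII background. All cultures were polarized toward the Th17 state for 3 days in IL-23 and IL-6 (10 ng/ml) and TGF-β (1 ng/ml), while anti-IL-4 and anti-IFN-γ (10 µg/ml) blocked those cytokines. There were 3 libraries of each genotype, given as biological replicates and numbered 1 to 3. The labels give neither the age or sex of the mice nor whether animals were pooled. Knockout libraries 1 and 2 stood apart in sex-linked genes, with Xist at 2.58 and 0 CPM (estimated counts per TMM-scaled library size) against 567 to 664 CPM in the other 4, and Ddx3y at 44.5 and 38.0 CPM against 0 to 0.452 CPM.

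Mitochondrial DNA is a small circle inside the organelle that codes for core subunits of respiratory chain complexes I, III and IV, for membrane subunits of the ATP synthase (complex V), and for the rRNAs and tRNAs with which the organelle translates them. Both strands are copied by a dedicated RNA polymerase into long precursors, which are cut largely at the tRNAs that lie between the other genes, and most of the mRNAs and the rRNAs then receive short poly(A) tails. All other respiratory chain subunits come from nuclear genes, and activated T cells enlarge and remodel their mitochondria as they grow and divide. Copies of mitochondrial DNA that were inserted into chromosomes in the past, known as nuclear mitochondrial sequences, can be so close to the original that a read cannot be assigned to one of them.

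One member has such a copy in the same table. mt-Nd4l (ENSMUSG00000065947, MT:9877-10173, plus strand, 297 nt) codes for ND4L, a small membrane subunit of complex I, and the predicted gene Gm10222 (ENSMUSG00000067736, 1:24612404-24612700, minus strand, 297 nt, GRCm38) is listed there as a protein_coding gene. The sequences are shown because the member with the largest difference between genotypes shares all its bases with this copy; how the counting divided reads between them was not tested. They are the transcripts of GENCODE M21, in which Gm10222 is an unprocessed pseudogene annotated with 294 nt. Capitals mark the bases shared with the mt-Nd4 reading frame: the last 7 bases of mt-Nd4l run from the start codon of mt-Nd4 to the stop codon of mt-Nd4l, and 4 of them fall in the annotated Gm10222.
mt-Nd4l: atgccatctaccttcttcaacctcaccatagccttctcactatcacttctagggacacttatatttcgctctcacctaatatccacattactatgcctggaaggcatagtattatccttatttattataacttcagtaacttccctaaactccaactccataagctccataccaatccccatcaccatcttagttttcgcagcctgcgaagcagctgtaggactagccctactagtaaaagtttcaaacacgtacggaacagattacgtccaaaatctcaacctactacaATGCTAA
Gm10222: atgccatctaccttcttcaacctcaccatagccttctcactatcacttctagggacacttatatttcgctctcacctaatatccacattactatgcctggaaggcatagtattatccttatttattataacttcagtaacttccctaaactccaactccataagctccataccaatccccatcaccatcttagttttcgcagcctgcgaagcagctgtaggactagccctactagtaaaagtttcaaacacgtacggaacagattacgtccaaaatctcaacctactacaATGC
All 294 annotated bases of Gm10222 were identical to mt-Nd4l. With the 3 bases that the neighbouring nuclear copy supplies, the model of 297 nt in the table had 0 mismatches, and both genes were listed with a GC fraction of 0.411. No base inside these 297 positions can tell the transcripts apart.

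mt-Nd4l was counted lower in every knockout library than in any wild-type library. It had 77.4, 56.8 and 42.1 CPM in wild-type libraries 1, 2 and 3, and 11.9, 12.0 and 24.5 CPM in knockout libraries 1, 2 and 3. The genotypes did not overlap, with means of 58.8 ± 17.8 and 16.1 ± 7.25 CPM (SD, n = 3). Knockout 3 lay above the other knockout libraries and below every wild-type library. The log2 change, knockout against wild-type, was -1.87 (SE 0.36), a 3.65-fold lower level, with an adjusted p of 1.00 in edgeR's quasi-likelihood test, the primary test, at an unadjusted p of 0.00135. With the replicate number as a block it was -1.93 (SE 0.32) in DESeq2, with an adjusted p of 7.19e-07, and -1.91 in edgeR, with an adjusted p of 0.366. Without pair 2 (libraries numbered 2) the DESeq2 value with the block was -1.76 (SE 0.86) and its adjusted p was 0.512, so that call was lost. The adjusted p in DESeq2 with the block was 1.93e-04 without pair 1 and 1.38e-20 without pair 3.

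Gm10222 moved the other way in the same libraries. It had 121, 124 and 97.5 CPM in wild-type libraries 1 to 3 and 172, 168 and 143 CPM in knockout libraries 1 to 3, again with no overlap. The primary test, edgeR without the block, did not call Gm10222, at a log2 change of 0.49 (SE 0.15) and an unadjusted p of 0.0149. DESeq2 without the block did not call it either, at an unadjusted p of 0.00489. In DESeq2 with the block its log2 change was 0.49 (SE 0.10), 1.4-fold higher, with an adjusted p of 5.48e-04. In edgeR with the block the adjusted p was 0.351. Leaving out pair 1, 2 or 3 moved that DESeq2 adjusted p to 0.118, 0.0281 or 0.494. In estimated counts, Gm10222 held 5872, 5517 and 4667 in the wild-type and 8787, 8196 and 7042 in the knockout libraries, so the row of the nuclear copy was the larger of these identical transcripts in all 6 libraries.

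The sum of mt-Nd4l and Gm10222 did not separate the genotypes. It was 198.0, 181 and 140 CPM in wild-type libraries 1 to 3 and 184, 180 and 167 CPM in knockout libraries 1 to 3, so that every knockout value lay within the wild-type range. The log2 change of the sum was 0.03 (SE 0.16, adjusted p 1.00) in edgeR without the block and 0.03 (SE 0.12, adjusted p 0.986) in DESeq2 with the block. Leaving out single libraries moved the edgeR value between -0.11 (without wild-type 3) and 0.14 (without wild-type 1). What differed was how the sum was divided: mt-Nd4l held 39.1%, 31.4% and 30.1% of it in wild-type and 6.47%, 6.66% and 14.7% in knockout libraries 1 to 3. This summing was added after the data were seen.

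mt-Nd4, the next gene, is translated from the same bicistronic mRNA as mt-Nd4l and gives a second reading of that molecule. Per kb of transcript, mt-Nd4l stood at 0.496, 0.383 and 0.359 of the mt-Nd4 level in wild-type libraries 1 to 3 and at 0.0825, 0.0769 and 0.175 in knockout libraries 1 to 3. The sum of mt-Nd4l and Gm10222 stood at 1.27, 1.22 and 1.19 of mt-Nd4 in wild-type and at 1.27, 1.16 and 1.19 in knockout libraries. Over all 6 libraries the highest ratio was 6.45 times the lowest with mt-Nd4l alone and 1.1 times with the sum.

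**Figure D1:**
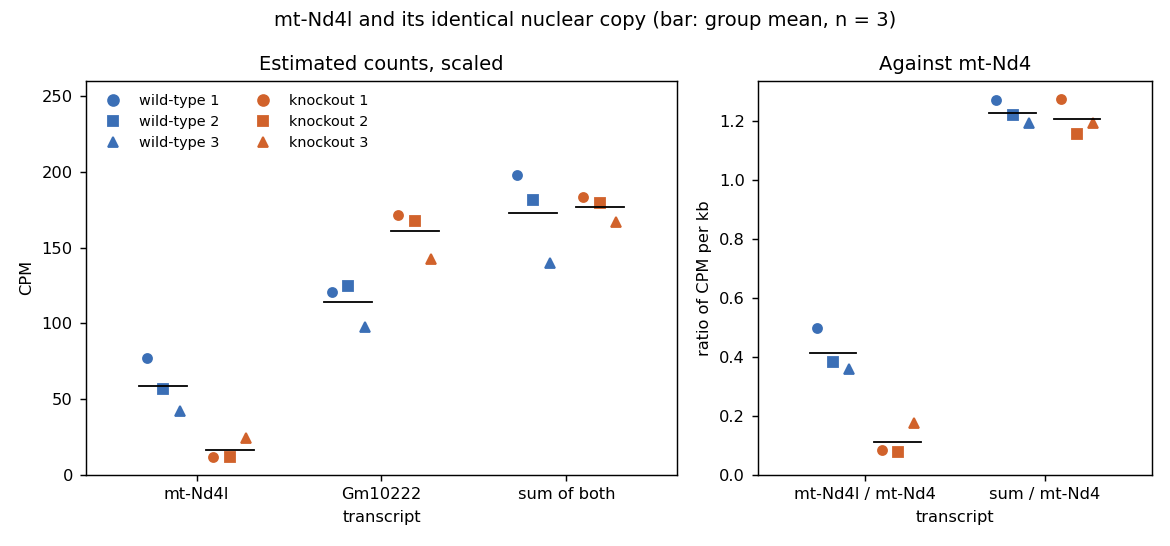
Left, CPM of mt-Nd4l, of Gm10222 and of their sum in each library; right, the ratio of mt-Nd4l or of the sum to mt-Nd4, each in CPM per kb. Points are libraries, with colour for genotype and shape for replicate number, and bars are group means of 3 libraries. mt-Nd4l was lower in every knockout library and Gm10222 higher, while the sum overlapped and stayed between 1.16 and 1.27 of mt-Nd4.

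Other nuclear copies took few or no counts. A search of the members against GENCODE M21 transcripts (at least 100 aligned nt and 90% identity) found 17 nuclear copies of 11 members, of which 9 copies of 7 members are rows of the table. Apart from Gm10222, no copy in the table exceeded 14.0 estimated counts in a library, the highest being Gm13341, a copy of mt-Co2, in knockout 1. Of the 5 copies identical over the whole aligned stretch, 1, Gm10222, is a row of the table. The other 4 (of mt-Co2, mt-Atp6, mt-Co3 and mt-Nd4) are not rows, so the table gives no counts split between them and the members. Copies among the 3910 table transcripts that have no sequence in GENCODE M21 were not looked for.

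As a class the mitochondrial mRNAs did not separate the genotypes. The 13 protein_coding members together made up 2.15%, 2.24% and 1.69% of all estimated counts in wild-type libraries 1 to 3 and 2.14%, 2.62% and 1.85% in knockout libraries 1 to 3. Their summed level was 21265, 23860 and 17030 CPM in the wild-type and 20537, 25449 and 18603 CPM in the knockout libraries, with means of 20718 ± 3448 and 21530 ± 3530 CPM (SD, n = 3). The mean log2 sum differed by 0.06 between genotypes, less than the spread within either. Pair by pair, log2 ratios of the sum were -0.05, 0.09 and 0.13. In these bulk libraries a change in RNA per cell and a change in the cells present cannot be told apart.

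Across all 15121 genes tested, edgeR without the block called 0 genes (0%) at an adjusted p under 0.05, with 253 at an unadjusted p under 0.05. With the block edgeR called 0 (0%), with 1471 unadjusted. DESeq2 called 13 genes (0.086%) without the block and 381 (2.52%) with it, of which 154 (1.02%) were higher and 227 (1.5%) lower in the knockout. limma-voom called 0 with and without the block, with 1642 and 276 at an unadjusted p under 0.05. A total of 16 members passed the low-count filter: the 13 mRNAs, both rRNAs and the tRNA mt-Tl1. Of these 16, edgeR called 0 without the block (1 at an unadjusted p under 0.05) and 0 with it (4 unadjusted). DESeq2 called 1 without the block, mt-Nd4l, and 2 with it, mt-Nd4l lower and mt-Nd3 higher. With mt-Nd4l and Gm10222 summed, DESeq2 with the block called 1 member, mt-Nd3.

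Small upward values were common among the other mRNAs. The edgeR log2 change was above 0 for 11 of the 13 mRNAs, against 7926 of all 15121 genes tested. The median over the mRNAs was 0.16, beside 0.01 over all genes tested. In 8 members, all mRNAs, the knockout library exceeded the wild-type library of its number in all 3 pairs, against 16.6% of all genes tested. The members come from shared precursors and are not independent of each other. Medians over the mRNAs were 0.05, 0.09 and 0.28 in pairs 1, 2 and 3. Wild-type 3 was the lowest library for 10 of 13 mRNAs and knockout 2 the highest for 8, and the median over the 16 members tested, 0.15, was 0.02 without wild-type 3 and 0.05 without knockout 2. The genotypes' CPM ranges did not overlap for 2 of the 16, mt-Nd2 and mt-Nd4l, against 6.14% of all genes tested.

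**Figure D2:**
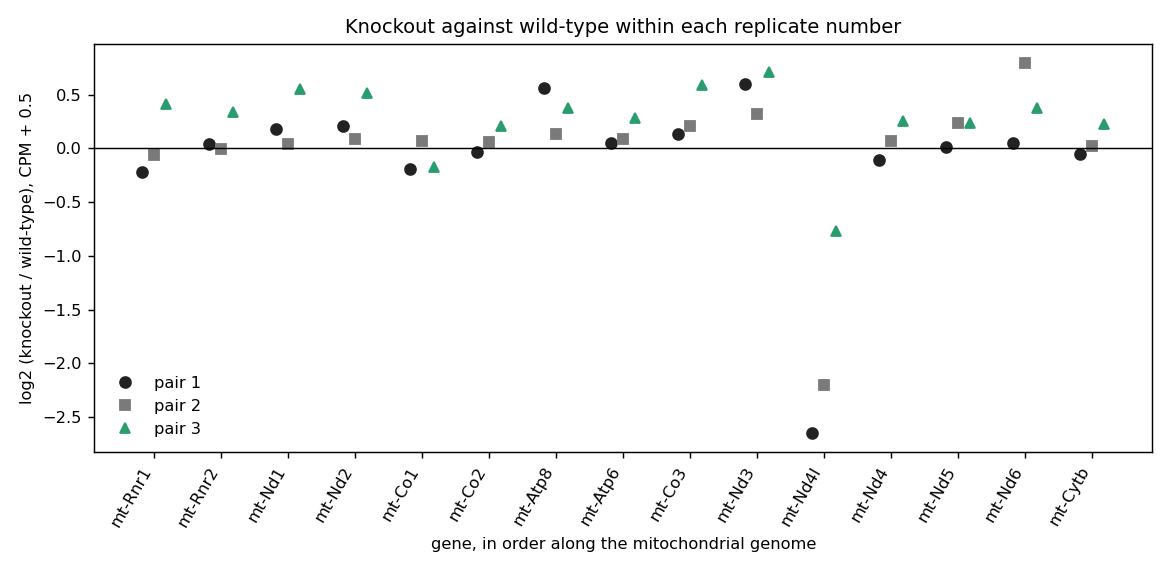
Log2 ratio of knockout to wild-type CPM (0.5 CPM added to each) within each replicate number, for the rRNA and mRNA genes in genome order; shapes and colours mark pairs 1, 2 and 3, and the line marks no difference. mt-Nd4l lies between -2.65 and -0.77, while every other gene lies between -0.22 and 0.80.

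Complex I, which takes electrons from NADH, draws 7 subunits from this genome, ND1 to ND6 and ND4L. Together they stood at 2482 ± 428 CPM (wild-type) and 2790 ± 217 CPM (knockout; SD, n = 3). mt-Nd3, whose product is a small membrane subunit at the joint between the arms of the complex, had 172, 197 and 109 CPM in wild-type libraries and 261, 247 and 179 CPM in knockout libraries 1 to 3. Knockout 3 lay below wild-type 2, so the ranges overlapped, although the knockout library was the higher in each pair, by log2 ratios of 0.60, 0.32 and 0.71. The log2 change was 0.52 (SE 0.26, adjusted p 1.00) in edgeR and 0.54 (SE 0.12, adjusted p 0.00178) in DESeq2 with the block. Without pair 1 that DESeq2 adjusted p was 0.102 and without pair 3 it was 0.538, so 2 of the 3 pairs were each needed for the call. mt-Nd3 has a nuclear copy of 99.7% identity over 345 of its 348 nt, Gm28438, which is not a row of the table.

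mt-Nd2, a core membrane subunit, had 322, 343 and 243 CPM in wild-type and 372, 366 and 350.1 CPM in knockout libraries 1 to 3. Every knockout library lay above every wild-type library, by little outside wild-type 3, and the log2 change was 0.26 (SE 0.16, edgeR adjusted p 1.00). mt-Nd1, the subunit nearest the quinone site, had 595, 703 and 413 CPM against 672, 722 and 603 CPM, with overlap. mt-Nd4 and mt-Nd5 code for large membrane subunits related to ion transporters. mt-Nd4 ran from 544 to 724 CPM in wild-type and from 650.3 to 722 CPM in knockout libraries, and mt-Nd5 from 596 to 739 CPM and from 705 to 831 CPM. Both overlapped between genotypes, at log2 changes of 0.06 and 0.16. mt-Nd6, the one mRNA copied from the other strand, had 76.1, 56.1 and 40.7 CPM in wild-type and 78.9, 98.0 and 53.0 CPM in knockout libraries 1 to 3. It overlapped between genotypes, and its pair ratios of 0.05, 0.80 and 0.38 were the least alike of the mRNAs other than mt-Nd4l.

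Complex III passes electrons to cytochrome c and takes 1 subunit from this genome, cytochrome b. Its gene mt-Cytb had 1445, 1357 and 1141 CPM in wild-type libraries and 1399, 1375 and 1335 CPM in knockout libraries 1 to 3. The values overlapped, and the knockout libraries were the more alike, with an SD of 32.7 against 156 CPM.

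Complex IV, cytochrome c oxidase, takes its catalytic core from mt-Co1, mt-Co2 and mt-Co3, which together stood at 14055 ± 2370 CPM (wild-type) and 14120 ± 2791 CPM (knockout; SD, n = 3). mt-Co1, the subunit that reduces oxygen, had the highest level of the members: wild-type libraries 1 to 3 held 9816, 10247 and 7797 CPM and knockout libraries 1 to 3 held 8596, 10755 and 6925 CPM. The groups overlapped at a log2 change of -0.08 (SE 0.20, edgeR adjusted p 1.00). Besides mt-Nd4l it was the one mRNA with a value below 0, and its value was 0.04 without knockout 3. mt-Co2, the subunit that accepts electrons from cytochrome c, had 2795, 3155 and 2187 CPM against 2736, 3278 and 2533 CPM. mt-Co3, a core subunit without redox centres, had 1975, 2712 and 1480.0 CPM against 2168, 3136 and 2234 CPM and overlapped as well, at a log2 change of 0.29 (SE 0.26).

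Complex V makes ATP and draws its a subunit from mt-Atp6 and a small membrane subunit from mt-Atp8. These reading frames overlap by 43 nt (MT:7927-7969), shown because reads from it fit either gene.
mt-Atp8 and mt-Atp6 overlap: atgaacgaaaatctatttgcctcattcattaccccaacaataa
mt-Atp8, 204 nt long, had 479, 850.2 and 512 CPM in wild-type libraries and 708, 931 and 668 CPM in knockout libraries 1 to 3, and mt-Atp6, 681 nt long, had 2051, 2787 and 1924 CPM against 2123, 2976 and 2344 CPM. Both overlapped between genotypes. Both come from one bicistronic mRNA, and per kb mt-Atp8 stood at 0.779, 1.02 and 0.889 of mt-Atp6 in wild-type and at 1.11, 1.04 and 0.952 in knockout libraries. The log2 change was 0.33 (SE 0.26, edgeR adjusted p 1.00) for mt-Atp8 and 0.14 (SE 0.20) for mt-Atp6. mt-Atp8 passed in DESeq2 with the block only when pair 2 was left out, at an adjusted p of 0.0372 beside 0.118 with all pairs.

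Shares within the mitochondrial mRNA separated the genotypes for 3 of its 13 genes and overlapped for the other 10. mt-Co1 held 46.2%, 43.0% and 45.8% of the summed estimated count of the 13 mRNAs in wild-type and 41.9%, 42.3% and 37.2% in knockout libraries 1 to 3. mt-Nd3 held 0.810%, 0.825% and 0.641% against 1.27%, 0.968% and 0.964%. These genes and mt-Nd4l were the 3 whose shares did not overlap, and shares of a single sum are tied to each other. The share of mt-Nd4l leaves out the identical Gm10222, and the CPM sum of both overlapped between genotypes. No matching count of shares was made over all genes. Their CPM ranges did not overlap for 6.14% of the genes tested. Scaled to the summed mRNA, edgeR with the block gave log2 changes of -0.15 (SE 0.10, adjusted p 0.712) for mt-Co1 and 0.49 (SE 0.14, adjusted p 0.333) for mt-Nd3, and it called 0 members.

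The rRNAs form the core of the mitochondrial ribosome. mt-Rnr1 (12S, MT:70-1024) had 396, 442 and 241 CPM in wild-type libraries and 340, 424 and 321 CPM in knockout libraries 1 to 3. mt-Rnr2 (16S, MT:1094-2675) had 329, 371 and 202 CPM against 339, 368 and 257 CPM. Both overlapped, with wild-type 3 lowest, at log2 changes of 0.01 (SE 0.25) and 0.10 (SE 0.26) in edgeR, adjusted p 1.00 for each. The mt-Rnr1 value was below 0 in 6 of 22 alternative settings and that of mt-Rnr2 in 3. These libraries were made by an mRNA protocol, so rRNA values count what that protocol captured.

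The tRNAs were nearly absent from the table. Of 22 tRNA genes, 59 to 75 nt long, 21 were listed at 0 in all 6 libraries. The exception was mt-Tl1, a leucine tRNA that lies directly between mt-Rnr2 and mt-Nd1 (MT:2676-2750, plus strand), shown as the only tRNA with a value.
mt-Tl1: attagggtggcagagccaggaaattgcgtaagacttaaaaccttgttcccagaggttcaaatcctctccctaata
mt-Tl1 had 159, 50.4 and 0 estimated counts in wild-type and 319, 0 and 160 in knockout libraries 1 to 3. Among values between 1 and 400 of transcripts of 60 to 90 nt, the fullest narrow bin was 36.8 to 39.4, with 12 of 128 values. If that is the worth of a single read, these counts are a handful of reads. Read that way, a 0 allows up to 3 reads, which is 110 to 118 estimated counts or 2.16 to 2.67 CPM over the 6 libraries, for counting error only. No difference between genotypes was detectable for mt-Tl1 at this depth (log2 change 1.11, SE 1.86, edgeR adjusted p 1.00).

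Short length was shared by the members with the least depth behind a count. Of the members' transcripts 24 were under 300 nt: the 22 tRNAs, mt-Atp8 and mt-Nd4l. The most frequent low value was 5.66 to 6.06 for transcripts of 190 to 220 nt, 2.83 to 3.03 for 280 to 310 nt and 1.07 to 1.15 for 1500 to 2000 nt, so an estimated count of mt-Atp8 or mt-Nd4l stands for fewer reads than one of mt-Co1. The summed mRNA without those short members differed by 0.05 between genotypes on the log2 scale, beside 0.06 with them.

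Per kb of transcript, mean levels of the mRNAs and rRNAs spanned a 54.1-fold range in wild-type libraries, from mt-Co1 down to mt-Nd6, and a 104-fold range in knockout libraries, from mt-Co1 down to mt-Nd4l. The means over all 6 libraries were 5840 ± 969 CPM per kb for mt-Co1, 4065 ± 586 for mt-Co2, 3476 ± 625 for mt-Atp6, 3389 ± 879 for mt-Atp8 and 2913 ± 737 for mt-Co3 (SD, n = 6). These genes lie side by side in the genome. mt-Cytb followed at 1173 ± 92.2 CPM per kb, apart from its neighbours in this order in every library. The complex I mRNAs came next, from 646 ± 118 for mt-Nd1 through mt-Nd3, mt-Nd4 and mt-Nd5 to 321 ± 45.5 for mt-Nd2, then mt-Nd6 at 129 ± 40.4. mt-Nd4l, at 126 ± 88.6 over all 6 libraries, had its place set by genotype: its mean of 198 CPM per kb in wild-type was above mt-Rnr2 (190.1) and mt-Nd6 (111), and its mean of 54.3 in knockout was the lowest of these genes. mt-Rnr1 at 378 ± 78.8 and mt-Rnr2 at 197 ± 42.6 CPM per kb lay among the complex I mRNAs. Of the 14 neighbouring pairs in this order 11 overlapped in range, and mt-Atp6 and mt-Atp8 exchanged places in 3 of 6 libraries. With Gm10222 added, mt-Nd4l would stand at 582 ± 101 CPM per kb in wild-type and 595 ± 29.3 in knockout libraries (SD, n = 3). The mRNAs' GC fraction ran from 0.319 (mt-Atp8) to 0.411 (mt-Nd4l). All mRNAs but mt-Nd6 lie on the plus strand, as do both rRNAs. mt-Nd5 and mt-Nd6 share 14 nt on opposite strands, and mt-Nd4l and mt-Nd4 share 7 nt on the same strand.

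**Figure D3:**
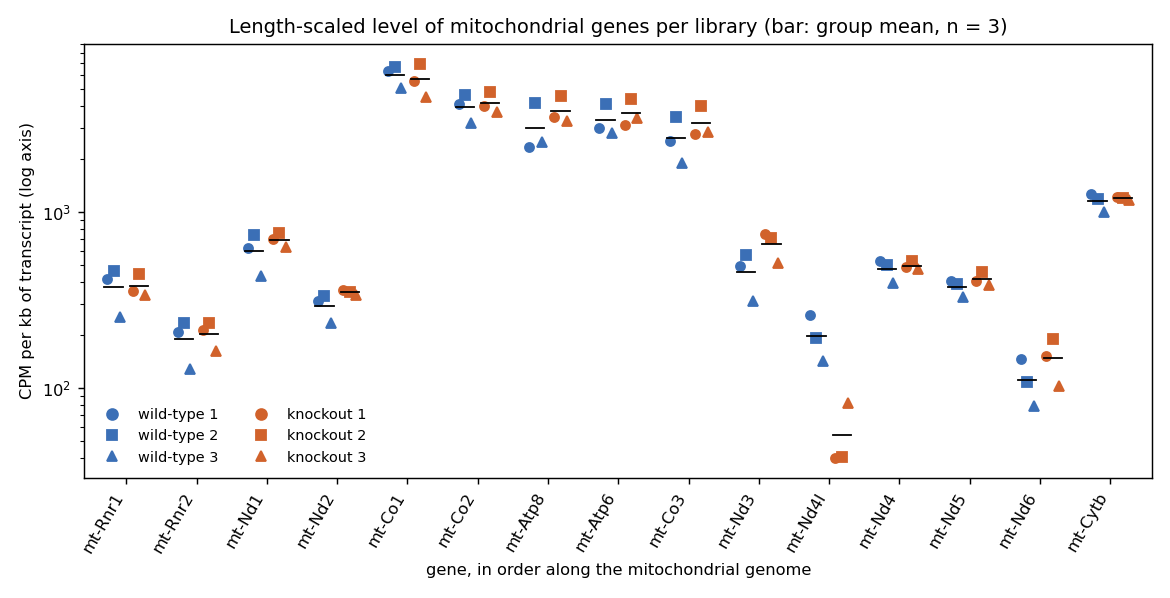
Level of each rRNA and mRNA gene in CPM per kb of transcript (log axis) in each library, in genome order; points are libraries, with colour for genotype and shape for replicate number, and bars are group means of 3 libraries. mt-Co1 to mt-Co3 form the high block, the wild-type mean is lowest for mt-Nd6 and the knockout mean for mt-Nd4l, and all knockout points of mt-Nd4l lie below its wild-type points.

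Few nuclear genes that serve this genome were called. Of 18 genes of mitochondrial transcription and DNA replication tested, 1 passed upward and 1 downward in DESeq2 with the block. That fit called 2.52% of all genes tested. In edgeR with or without the block 0 of the 18 passed, with a median edgeR log2 change of 0.07. At an unadjusted p under 0.05 were 4 of the 18 in DESeq2 with the block, 4 in edgeR with it and 1 in edgeR without it. Over all 15121 genes tested those counts were 1601, 1471 and 253. Tefm, the elongation factor of the mitochondrial RNA polymerase, had 3.29, 4.67 and 4.93 CPM in wild-type and 6.06, 8.06 and 10.6 CPM in knockout libraries 1 to 3, with no overlap. Its log2 change was 0.92 (SE 0.24, DESeq2 adjusted p 0.0119 with the block, edgeR adjusted p 1.00 without and 0.350 with it). That call was lost without pair 1, 2 or 3, at DESeq2 adjusted p of 0.343, 0.262 and 1.00. Polg, the catalytic subunit of the mitochondrial DNA polymerase, had 126, 173 and 143 CPM against 89.99, 129 and 123 CPM and overlapped, at -0.38 (SE 0.12, DESeq2 adjusted p 0.0419 with the block, edgeR adjusted p 1.00 without and 0.397 with it). Its call was lost as well without pair 1, 2 or 3 (0.829, 0.375 and 0.494). Of 34 RNA processing, stability and decay genes 0 were called in DESeq2 with the block (2 at an unadjusted p under 0.05) and 0 in edgeR (0 unadjusted), at a median of 0.08. Fastk (-0.22) and Trmt5 (0.23) had the smallest unadjusted p in edgeR.

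The 69 nuclear subunits of complexes I, III, IV and V that passed the filter gave 0 calls in DESeq2 with the block (3 at an unadjusted p under 0.05) and 0 in edgeR (0 unadjusted). Of these subunits 46 had an edgeR log2 change above 0, against 7926 of all 15121 genes tested. Medians were 0.03 for complex I, 0.05 for complex III, 0.02 for complex IV and 0.04 for complex V. The smallest p values belonged to Ndufa6 (-0.28) and Ndufb11 (-0.39), Cyc1 (0.18) and Uqcrq (0.12), Cox7a2 (0.26) and Cox6c (0.16), and Atp5d (-0.28) and Atp5j (0.15), all edgeR log2 changes. The 73 mitochondrial ribosomal protein genes gave 0 calls in DESeq2 with the block (1 unadjusted) and 0 in edgeR (0 unadjusted), at a median of 0.06, led by Mrpl13 (0.40) and Mrpl39 (0.25). Of 12 regulators of mitochondrial biogenesis and 18 genes that track mitochondrial mass 0 were called in DESeq2 with the block or in edgeR (0 unadjusted in each), at medians of 0.05 and 0.08. Sirt1 (0.36) and Gabpa (0.14) had the smallest edgeR p of the biogenesis regulators, and Tomm20 (0.17) was 1 of the 2 with the smallest in the mass list. Of 16 mitochondrial stress response genes 1 passed downward in DESeq2 with the block and 0 in edgeR: Ddit3, the stress factor CHOP, at -0.50 (SE 0.14, adjusted p 0.0175, edgeR adjusted p 1.00 without the block and 0.351 with it). Ddit3 was not called without pair 1, 2 or 3 (DESeq2 adjusted p 0.382, 0.321 and 0.986). Its levels overlapped, with 43.1, 39.3 and 31.6 CPM in wild-type and 33.3, 27.4 and 21.3 CPM in knockout libraries 1 to 3.

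The libraries matched their genotype labels: Il17a had 161, 211 and 108 CPM in wild-type and 1.11, 0 and 0.0202 CPM in knockout libraries 1 to 3. Even so, edgeR did not call Il17a, at a log2 change of -8.70 without the block and an adjusted p of 0.217 with it. DESeq2 called it, at an adjusted p of 0.00855 without the block and 4.44e-06 with it. A gene that edgeR did not call can therefore not be read as unchanged. Library totals were between 47335736 and 49743762 estimated counts. Knockout libraries 1 and 2, which stood apart in sex-linked genes, are also those with the lowest mt-Nd4l, 11.9 and 12.0 CPM. In edgeR without the block, leaving out knockout 1 or knockout 2 gave log2 changes of -1.70 or -1.71 for mt-Nd4l, 0.43 or 0.44 for Gm10222 and 0.41 or 0.44 for mt-Nd3. Some markers of other cells passed in DESeq2. In DESeq2 with the block 1.02% of all genes tested passed upward and 1.5% downward. In the same fit 5 of 8 B cell markers, 2 of 3 CD8 T cell markers, 2 of 5 NK cell markers and 4 of 7 myeloid markers passed upward, and 0 passed downward. In edgeR with or without the block 0 of these passed, and in DESeq2 without the block 1 did, the B cell gene Igkc. Their summed levels overlapped between genotypes and ran from 149 to 354 CPM in wild-type libraries and from 334 to 758 CPM in the knockout libraries for B cells, from 87.9 to 495 and from 146 to 784 CPM for CD8 T cells, from 77.9 to 315 and from 153 to 573 CPM for NK cells, and from 72.2 to 232 and from 117 to 369 CPM for myeloid cells. Within every pair, however, the knockout sum was the higher for each of these cell types. B cell sums were 354, 207 and 149 CPM in wild-type and 758, 461 and 334 CPM in knockout libraries 1 to 3. Of 8 CD4 T cell markers 1, Cd5, passed downward in DESeq2 with the block (0 upward, and 0 in edgeR), with sums of 3013 to 4139 and 3161 to 3757 CPM, and the 6 erythroid markers summed to at most 0.798 CPM, with Slc4a1 at 0. Of 2 platelet markers tested 1, Itga2b, passed downward in DESeq2 with the block and 0 in edgeR. The part of sex or of other cells in the values of mt-Nd4l, Gm10222 and mt-Nd3 was not tested.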

How the data were processed

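RNA from 3 wild-type and 3 knockout cultures was sequenced as stranded mRNA libraries, per the labels' protocols. The deposited table gives, per the file headers, an estimated count per transcript and library for 93480 transcripts, with each transcript's length, coordinates and GC content as a fraction. The submitters' processing notes name Bowtie2 2.1.0, eXpress 1.3.1 and GRCm38. The annotation, the counting settings and whether strand was used in counting are not given in the sources used. The deposited GC fraction entered no test. Which eXpress output the estimated count column is was read from its values: the most frequent low values rise as transcripts shorten, so a short transcript has fewer reads behind each count.

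Transcript values were added up per gene and rounded to whole numbers. The primary test was the quasi-likelihood test of edgeR 4.0.16, without a block, after filterByExpr at default settings and TMM scaling, and Benjamini-Hochberg adjustment over all genes tested at a threshold of 0.05. DESeq2 1.42.0 and limma 3.58.1 (voom) with and without the replicate number as a block, other scalings, no filter, single transcripts, and fits leaving out each library or pair were alternatives, run in R 4.3.3. Each tool was also run on simulated data, and the outcome is not reported here. DESeq2 with the block gave no adjusted p for 880 genes, none of them a member. Pair ratios are log2 with 0.5 CPM added to each value.

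Both genotypes share the replicate numbers 1 to 3. Deviations from the group mean gave correlations across genes of 0.483, 0.328 and 0.491 for same-numbered libraries, and of -0.365 to -0.125 for all others. Centring on the group mean ties these values to each other, so the negative ones are not separate evidence of pairing. Since each same-number value exceeded 0.1, the rule applied, equal numbers were treated as pairs. The labels state no pairing. The pairs were thus inferred from the same expression values to which the block was then fitted. The block lowered the common dispersion in edgeR from 0.169 to 0.0601. With 3 libraries a genotype, p-values of fits without the block measure the spread between these cultures. Those of fits with the block measure the spread left once differences between replicate numbers are taken out.

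Sequences came from GENCODE M21 (GRCm38). All 37 members matched it in length and GC content, and 89570 table transcripts have a sequence there. Nuclear copies were found with blastn 2.17.0. Tables and plots used Python 3.11.15 (numpy 2.4.6, pandas 2.3.3, matplotlib 3.10.9).

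The members and gene lists were chosen with earlier results of these data known. All rRNA and mRNA members and any tRNA past the filter are named; of each other list, genes past an adjusted p of 0.05 in edgeR or DESeq2 with the block, or else the pair with the smallest unadjusted p in edgeR, except that of the marker lists few are named and that some genes are not reported here. Lists are described by counts and medians without a test of the list. Mterf1a and Mterf1b and most nuclear copies listed by name had no row, and Nsun4 is under more than one gene ID, all kept.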

Additional observations from a re-analysis of the deposited data

How the results depend on the processing

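No alternative of edgeR or limma-voom on all libraries or with 1 library left out called a member, and the summed mitochondrial mRNA moved by less than the spread between replicates under every alternative run. Against 0 genes called, DESeq2 gave 13 without the block and 381 with it. With the block and pair 1, 2 or 3 left out DESeq2 gave 176, 264 or 149, and edgeR gave 8 without pair 1. Leaving out 1 library without the block gave 0 to 1 genes (1 without knockout 1). Members called went from 0 to 1 in DESeq2 without the block, to 2 in DESeq2 with the block, to 1, 2 or 1 in DESeq2 with the block without pair 1, 2 or 3, and to 1 in DESeq2 with the block after mt-Nd4l and Gm10222 were summed. mt-Nd4l kept its direction in all 22 alternatives (-2.49 to -1.50). All 22 used the counts as divided between mt-Nd4l and Gm10222, so none could show the effect of that division. mt-Nd4l passed the threshold at -1.87 in DESeq2 without the block and at -1.93 with it. In DESeq2 with the block it also passed at -1.50 without pair 1 and at -2.49 without pair 3. The cause of these changes of call was not tested.

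Of 352 values of the 16 members tested under alternatives, 23 had the opposite sign, and 8 members kept theirs throughout. Without pair 3, edgeR and DESeq2 with the replicate block gave -0.16 and -0.15 for mt-Rnr1, -1.42 and -3.66 for mt-Tl1, -0.04 and -0.03 for mt-Nd4, and -0.03 and -0.02 for mt-Cytb; edgeR gave -0.01 for mt-Co2 and 0.00 (below 0 before rounding) for mt-Rnr2; and DESeq2 gave -0.07 for the sum of mt-Nd4l and Gm10222. DESeq2 without the block and DESeq2 size factors gave 0.00 for mt-Rnr1, also below 0 before rounding. With 1 library left out, ranges that crossed 0 were -0.22 to 0.19 for mt-Rnr1, -0.14 to 0.28 for mt-Rnr2, -0.28 to 0.04 for mt-Co1, -0.07 to 0.20 for mt-Co2, -0.04 to 0.33 for mt-Atp6, -0.07 to 0.14 for mt-Nd4, -0.04 to 0.14 for mt-Cytb and -0.11 to 0.14 for the sum; the lowest value came without wild-type 3 except for mt-Co1 and mt-Atp6, where it came without knockout 2. Of 33 other named genes 7 crossed 0 in some setting: with 1 library left out, Klrc1 (-0.13 to 1.74), Cd8a (-0.82 to 2.16), Klrd1 (-0.02 to 1.3), Klrk1 (-0.53 to 1.88) and Itgam (-0.50 to 2.16), and with the replicate block Tomm20 without pair 3 (-0.02 in edgeR, -0.01 in DESeq2) and Uqcrq without pair 1 (0.00 in edgeR). With all libraries edgeR called 0 genes with or without the block, so it could show no effect of the block on a call. For the tRNAs, few reads stand behind any count above 0; why most are at 0 was not tested.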
